A study of Homo sapiens with 16 samples.

Results

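The 10 genes described here were chosen by name, with earlier results of these data known. Their transcripts report the output of the ERK pathway or restrain it. They are DUSP4, DUSP5, DUSP6, SPRY2, SPRY4, SPRED1, SPRED2, ETV4, ETV5 and PHLDA1. All 10 were found among the 58676 gene identifiers in each count file, and all 10 passed the filter on low counts in every fit. mRNA was sequenced from 2 human cancer cell lines, A549 (lung) and SUM159 (triple negative breast cancer). Cells of each line went without drug or received palbociclib (2 µM), indisulam (3 µM) or the pair for 16 h. Each of these 8 groups held 2 libraries, which the study describes as technical duplicates, so every SE and p-value below measures the spread between such libraries and not between independent cultures. Palbociclib inhibits the cell cycle kinases CDK4 and CDK6, and indisulam directs the splicing factor RBM39 to degradation. The libraries were made to characterise the splicing errors that follow loss of RBM39, and each group was compared with its own untreated cells and with the other treatments.

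The ERK kinases are the last ones of the RAS, RAF and MEK cascade, which carries growth factor signals to the nucleus. Active ERK raises transcription of its own inhibitors, so the mRNAs of these inhibitors are widely read as a measure of pathway output. DUSP4, DUSP5 and DUSP6 encode phosphatases that dephosphorylate ERK. SPRY2, SPRY4, SPRED1 and SPRED2 encode Sprouty and SPRED proteins, which dampen signalling at the level of RAS and RAF. ETV4 and ETV5 encode ETS family transcription factors that are induced downstream of ERK, and PHLDA1 encodes a pleckstrin homology-like protein that is also ERK responsive. ERK phosphorylation itself was not measured in these libraries.

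Depth was even enough for every member to be counted in every library: gene counts ranged from 18306636 to 34075588. CPM are counts per 1e+06 counts of the genes that passed the filter, scaled between libraries. For levels between lines the scaling spanned all 16 libraries, and for drug effects it was done within each line. Untreated A549 cells held the epithelial genes EPCAM and CDH1 at 26.1 and 82.6 CPM and untreated SUM159 cells at 0.249 and 0.227 CPM. The keratin genes KRT7, KRT8 and KRT18 held 1520, 5390 and 5040 CPM in A549 and 1880, 590 and 423 CPM in SUM159. VIM stood at 958 CPM in A549 and 3830 CPM in SUM159. The lung lineage genes NKX2-1, SFTPB and SFTPC were at or near 0 in both untreated lines, and so were ESR1 and PGR. ERBB2 held 112 CPM in untreated A549 and 94.1 CPM in untreated SUM159 cells. Reads outside any annotated gene feature made up 3.89 to 6.78% of all reads per library, and the share was higher in both indisulam and both combination libraries than in both untreated libraries of the same line. The share was also higher in both palbociclib libraries of SUM159 (4.96 and 5.45%, beside 3.89 and 3.99% untreated). In A549 it overlapped between palbociclib and untreated libraries. Its part in the results was not tested. Reads of DUSP6, ETV4 and PHLDA1 can overlap a gene on the opposite strand, and those of ETV5 overlap DGKG on the same strand. The libraries were strand-specific, but the strand setting of the counting is not given in the sources used here. The opposite-strand neighbours of DUSP6 and PHLDA1 held at most 9 and 5 reads in any library, and DHX8, the neighbour of ETV4, held 1639 to 3897. ETV4 itself held 1658 to 3283 reads in A549 and 1044 to 1942 in SUM159. DGKG held 201 to 798 reads in A549 and 362 to 685 in SUM159, beside 1521 to 2970 and 1280 to 2073 for ETV5. The ETV4 and ETV5 counts are uncertain to the extent that such reads were shared.

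Before treatment, DUSP4 led the 10 genes in A549 and came last in SUM159, and the Sprouty genes came last in A549. Levels between genes are compared here per kilobase of exon, as CPM per kb (mean ± SD, n = 2). In untreated A549 cells, DUSP4 was the most abundant at 49.0 ± 1.60. It was followed by ETV4 at 27.9 ± 0.498, PHLDA1 at 21.9 ± 0.514, DUSP5 at 18.4 ± 0.271, ETV5 at 15.6 ± 0.399 and SPRED2 at 11.3 ± 0.201. SPRED1 (6.90 ± 0.424), DUSP6 (5.86 ± 0.545), SPRY4 (4.40 ± 0.189) and SPRY2 (4.29 ± 0.162) were the lowest, and the libraries of SPRY4 and SPRY2 overlapped. In untreated SUM159 cells DUSP5 led at 18.8 ± 1.23, then PHLDA1 at 17.1 ± 0.128 and ETV4 at 16.2 ± 0.208. SPRY2 (14.1 ± 0.665) and SPRED2 (13.9 ± 0.233) overlapped each other, SPRED1 (13 ± 0.287), SPRY4 (11.8 ± 0.00928) and ETV5 (10.2 ± 0.194) lay below them, and DUSP6 (4.29 ± 0.0186) and DUSP4 (4.11 ± 0.117) were the lowest.

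**Figure D1:**
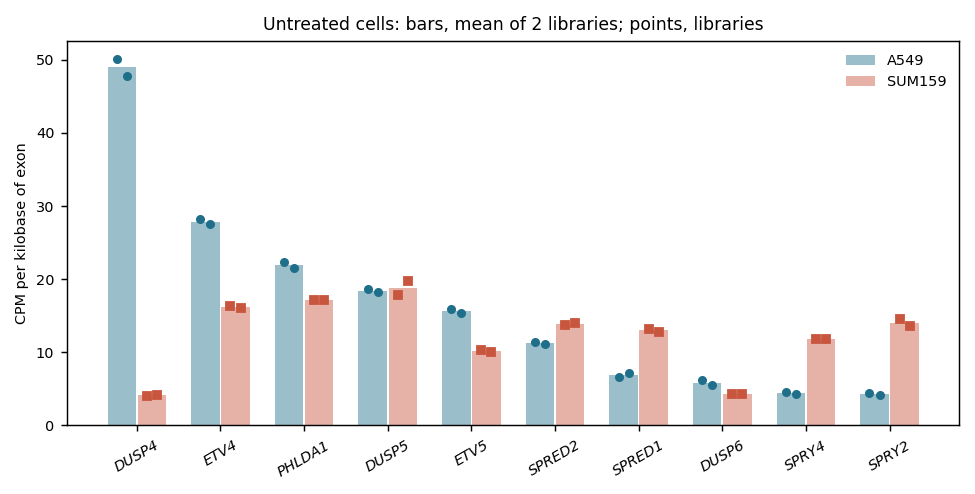
Level of each gene in untreated A549 (blue circles) and SUM159 (red squares) cells, in CPM per kilobase of exon, with genes in the order of their A549 level. Bars are means of 2 libraries and points are the libraries. DUSP4 reaches 49.0 in A549 and 4.11 in SUM159, whereas SPRY2 and SPRY4 are higher in SUM159.

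The lines differed at 9 of the 10 genes, of which 4 were higher in SUM159 and 5 lower. Of all genes tested, 76.3% differed between the untreated lines (38.3% higher and 38% lower in SUM159), so a difference by itself was common. The sizes were not alike. DUSP4 held 348 and 365 CPM in the untreated A549 libraries and 29.3 and 30.5 CPM in those of SUM159, a log2 difference of -3.57 ± 0.0489 (SE), or 11.9-fold lower in SUM159 (edgeR adjusted p = 9.16e-27). SPRY2 went the other way, at 13.4 and 14.2 CPM in A549 and 43.6 and 46.7 CPM in SUM159 (log2 difference 1.71, adjusted p = 2.23e-16). SPRY4 was higher in SUM159 by 1.43 on the log2 scale, SPRED1 by 0.91 and SPRED2 by 0.30. The log2 difference was -0.78 for ETV4, -0.62 for ETV5, -0.45 for DUSP6 and -0.36 for PHLDA1, all lower in SUM159. DUSP5 held nearly the same level in both, with a log2 difference of 0.03 ± 0.0613 (adjusted p = 0.657).

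Palbociclib raised 5 of the 10 genes in A549 and lowered none. Across all genes 43.2% were called in this comparison (22% higher and 21.1% lower), and the median log2 change was 0.13 for the members and 0.03 for all genes. DUSP6, the cytoplasmic phosphatase most specific for ERK, changed most: the untreated libraries held 23.3 and 20.4 CPM and the palbociclib libraries 46.0 and 42.4 CPM. That is a 2.01-fold rise (log2 change 1.01 ± 0.0857 SE, adjusted p = 2.86e-07), and the 2 groups were far apart relative to the spread within each. DUSP5, a nuclear phosphatase of ERK, went from 45.6 and 44.6 CPM to 63.9 and 65.8 CPM (log2 change 0.53 ± 0.0517, adjusted p = 1.40e-06). SPRY2 went from 13.7 and 13 CPM to 17.9 and 18.7 CPM (log2 change 0.46 ± 0.0911, adjusted p = 0.000919). All 3 calls held under every alternative other than the one that asks for an absolute log2 change of at least 1, which DUSP6 alone passed. Because cells were sequenced in bulk, a change in some cells and a change in every cell cannot be told apart.

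SPRED1 and SPRY4 were also called higher in A549, by 0.23 and 0.18 on the log2 scale, but neither call stood firmly. Without A549 untreated replicate 1, the adjusted p of SPRED1 was 0.123 and the number of members called fell from 5 to 3. The adjusted p of SPRY4 was 0.0391 by edgeR and 0.217 by DESeq2. The other 5 members did not pass the test: DUSP4 changed by 0.06, PHLDA1 by 0.09, ETV5 by 0.01, ETV4 by -0.04 and SPRED2 by -0.06, the last 2 of which were 0.02 and 0.000595 with total counts. The phosphatases DUSP5 and DUSP6 thus moved with SPRY2, while the ETS factors and DUSP4 stayed within 0.06 of their untreated level on the log2 scale.

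In SUM159, palbociclib lowered 5 of the 10 genes and raised 1, against 54.5% of all genes called (29% lower and 25.5% higher). The one that rose was DUSP6, from 17.7 and 17.4 CPM to 22.8 and 23.6 CPM (log2 change 0.41 ± 0.067, adjusted p = 6.60e-05). ETV4 fell most, from 61.0 and 59.5 CPM to 39.2 and 41.5 CPM (log2 change -0.58 ± 0.0508, adjusted p = 4.87e-08). Both treated libraries lay well below both untreated ones. PHLDA1 fell from 107 and 108 CPM to 83.8 and 86.7 CPM (log2 change -0.33, adjusted p = 2.31e-06). SPRED2 fell by 0.23 and DUSP4 by 0.22 on the log2 scale, and ETV5 by 0.13. The calls of DUSP4 and ETV5 ended when libraries were scaled by total counts (log2 changes -0.12 and -0.02, adjusted p = 0.100 and 0.719), a scaling that shifted the median of all genes up by 0.11 in this comparison. The genes that had risen in A549 did not pass the test here: DUSP5 changed by -0.04, SPRY2 by -0.07, SPRY4 by -0.08 and SPRED1 by -0.10, and with total counts all 4 values were between 0.000872 and 0.07.

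**Figure D2:**
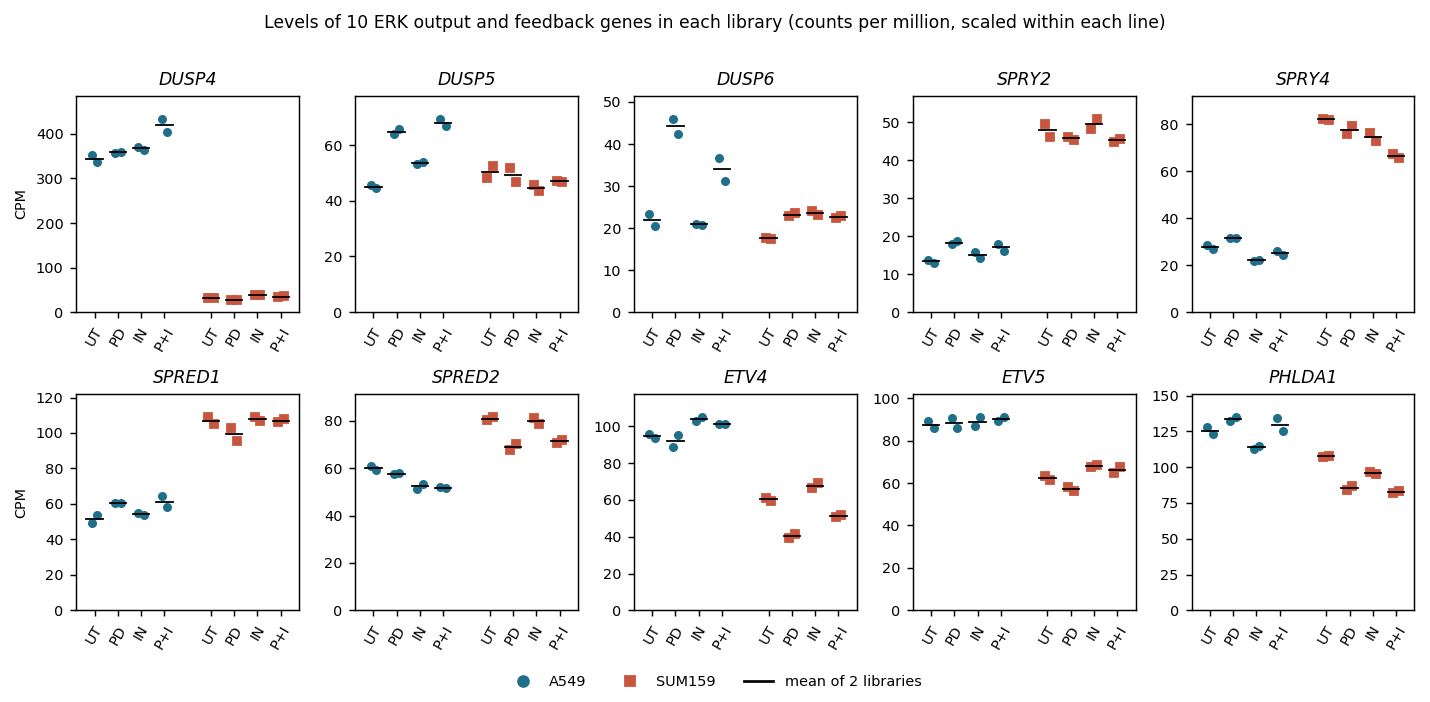
Level of each gene in every library, in CPM scaled within each line, for untreated (UT), palbociclib (PD), indisulam (IN) and combination (P+I) cells of A549 (blue circles) and SUM159 (red squares). Horizontal lines are means of 2 libraries and each panel has its own axis from 0. DUSP6 rises from about 22 to above 42 CPM with palbociclib in A549, and ETV4 falls to about 40 CPM with palbociclib in SUM159.

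Whether the 2 lines answered palbociclib differently was tested directly, as the log2 change in SUM159 minus that in A549 in a fit of all 16 libraries. The difference was called for 6 of the 10 genes, all lower in SUM159, where 12.8% of all genes were called (3.15% lower and 9.65% higher). It was -0.51 ± 0.112 for DUSP6 (adjusted p = 0.00334), -0.47 ± 0.0822 for DUSP5 (adjusted p = 0.000366), -0.44 ± 0.0694 for ETV4 (adjusted p = 9.84e-05) and -0.43 ± 0.102 for SPRY2 (adjusted p = 0.0059). PHLDA1 differed by -0.33 (adjusted p = 0.000752), and SPRED1 by -0.24 (adjusted p = 0.0396), a call that was lost when only the groups compared entered the fit (adjusted p = 0.0515). The SPRED1 call was also lost with the replicate block and without any 1 of 5 of the 16 libraries. DUSP4 (-0.18), SPRY4 (-0.16), SPRED2 (-0.08) and ETV5 (-0.04) did not pass the test, so the sign was negative for all 10 genes. DUSP6 therefore rose in both lines but less in SUM159, DUSP5 and SPRY2 were called higher in A549 alone with a tested difference, and ETV4 and PHLDA1 were called lower in SUM159 alone with a tested difference.

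These differences depend on how the lines are scaled to each other, so they were also read against all genes. The median difference was -0.28 for the members and 0.08 for all genes. With normalisation factors from each line alone, an alternative added after seeing the data, the median of all genes was -0.01 and that of the members -0.38, and 8 members were called, DUSP4 and SPRY4 being added. Among all called genes, 75.4% were higher in SUM159 with TMM and 44.0% with DESeq2 size factors. Over the alternatives tried, the members' median stayed between -0.38 and -0.33 relative to that of all genes. The count of members called was 10 without A549 untreated replicate 1, A549 indisulam replicate 2, or either A549 combination library, when the median of all genes was -0.09 or -0.10.

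**Figure D3:**
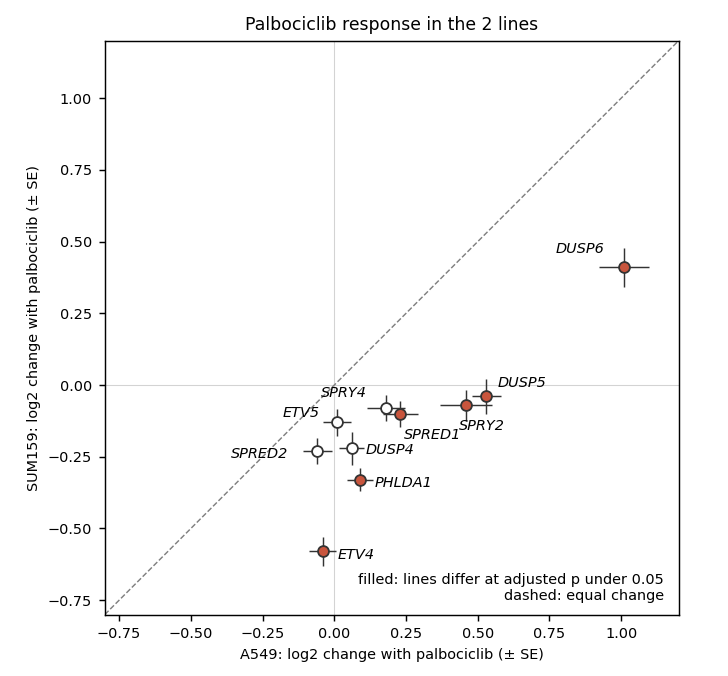
Log2 change with palbociclib in A549 (horizontal) and SUM159 (vertical), each ± SE from the edgeR fit of that line. The dashed line marks equal change, and filled points are genes whose change differed between lines at adjusted p under 0.05. All 10 genes lie below the dashed line, DUSP6 at 1.01 and 0.41.

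The promoter sequence of 3 members is shown because each stands for one of these patterns: DUSP6 rose in both lines, SPRY2 in A549, and PHLDA1 fell in SUM159. The 250 bases before the start site are from RefSeq (GRCh38.p14), written 5′ to 3′ on the gene's strand. Windows were used for 6 members, also SPRY4, SPRED1 and SPRED2, and DUSP4, DUSP5, ETV4 and ETV5 were not examined. The start site of the SPRY4 window lies 2208 bases from the gene's start in GENCODE, that of SPRED2 lies 38 bases away, and those of the others coincide with it. Capitals mark matches on either strand to the ETS word CCGGAA, the AP-1 word TGANTCA, or the words TGAATGAA, TGAATGGA, TCAATGAA and TCAATGGA bound by CIC, a repressor that ERK relieves.
DUSP6, chr12:89352502-89352751, minus strand: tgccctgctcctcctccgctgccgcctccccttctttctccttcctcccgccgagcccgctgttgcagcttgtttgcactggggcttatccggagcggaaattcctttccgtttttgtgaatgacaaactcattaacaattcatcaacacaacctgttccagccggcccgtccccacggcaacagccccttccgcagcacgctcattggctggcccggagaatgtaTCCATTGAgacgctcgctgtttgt
SPRY2, chr13:80341127-80341376, minus strand: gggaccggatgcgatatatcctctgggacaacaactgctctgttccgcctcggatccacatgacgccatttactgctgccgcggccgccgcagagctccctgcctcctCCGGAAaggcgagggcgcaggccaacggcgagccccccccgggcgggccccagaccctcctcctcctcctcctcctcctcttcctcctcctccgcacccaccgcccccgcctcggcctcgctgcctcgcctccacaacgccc
PHLDA1, chr12:76031777-76032026, minus strand: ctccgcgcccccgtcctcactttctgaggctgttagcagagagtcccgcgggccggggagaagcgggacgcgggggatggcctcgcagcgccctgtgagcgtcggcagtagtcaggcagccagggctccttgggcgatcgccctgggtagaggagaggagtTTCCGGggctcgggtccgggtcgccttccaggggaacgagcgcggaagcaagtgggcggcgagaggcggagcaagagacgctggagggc

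DUSP6 held 1 match to a CIC word, on the opposite strand from -24 to -17 relative to the start site. SPRY2 held 1 ETS match from -142 to -137, and PHLDA1 held 1 ETS match from -89 to -84 on the opposite strand. No word was matched in the windows of SPRY4, SPRED1 and SPRED2. Of all 35116 promoter windows of this length, 14.5% held the ETS word, 6.57% the AP-1 word and 3.18% a CIC word, so each match is a description of the letters only.

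Indisulam did not change DUSP6 past the threshold in A549, where it held 23.3 and 20.4 CPM untreated and 21.0 and 20.8 CPM treated (log2 change -0.07 ± 0.0943, adjusted p = 0.579). Of the 10 genes, 2 were called higher and 3 lower in A549, against 49.2% of all genes called (23.3% higher and 25.9% lower). SPRY4, which antagonises receptor signalling to RAS, fell from 28.8 and 27.1 CPM to 21.9 and 22.2 CPM (log2 change -0.34 ± 0.0697, adjusted p = 0.00096). DUSP5 rose from 45.6 and 44.6 CPM to 53.2 and 53.8 CPM (log2 change 0.25, adjusted p = 0.00144). SPRED2 (-0.20), PHLDA1 (-0.14) and ETV4 (0.14) were called with smaller changes. The log2 changes of SPRY2 (0.17), DUSP4 (0.09), SPRED1 (0.07) and ETV5 (0.03) did not pass the test. Without A549 untreated replicate 1 or without A549 indisulam replicate 1 the count fell from 5 to 2, and without replicate 2 of either group to 3. By DESeq2 it was 3.

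In SUM159, indisulam raised DUSP6 where it had not in A549, from 17.7 and 17.4 CPM to 24.0 and 23.1 CPM (log2 change 0.42 ± 0.068, adjusted p = 7.71e-05). The treated libraries did not overlap the untreated ones. Of the 10 genes 4 were called higher and 3 lower, against 46.9% of all genes (21.9% higher and 24.9% lower). DUSP4 rose from 31.2 and 32.2 CPM to 38.4 and 39.3 CPM (log2 change 0.29, adjusted p = 0.000387), opposite in sign to its change with palbociclib. ETV4 rose by 0.17 and ETV5 by 0.13 on the log2 scale, also opposite to palbociclib, whereas PHLDA1 fell with both drugs, here by 0.17. DESeq2 lost the calls of ETV4 (adjusted p = 0.0675) and ETV5 (adjusted p = 0.194). DUSP5 (-0.18) and SPRY4 (-0.14) were lower, and SPRY2 (0.05), SPRED1 (0.02) and SPRED2 (-0.02) did not pass the test. The count fell from 7 to 3, leaving DUSP4, DUSP6 and PHLDA1, without SUM159 untreated replicate 2. It was also 3 without SUM159 indisulam replicate 2.

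The answer to indisulam differed between lines at 3 members, where 15% of all genes were called (8.04% higher and 6.97% lower). The difference was 0.49 ± 0.118 for DUSP6 (adjusted p = 0.00587), -0.43 ± 0.0842 for DUSP5 (adjusted p = 0.00121) and 0.20 for DUSP4 (adjusted p = 0.046). The median difference was 0.07 for the members and 0.02 for all genes. Without A549 untreated replicate 1 only DUSP5 was called, with 0.37 for DUSP6 (adjusted p = 0.0775). The call of DUSP4 was lost without any 1 of 14 of the 16 libraries, with DESeq2 size factors (adjusted p = 0.0696), with the replicate block (adjusted p = 0.0524) and by DESeq2 (adjusted p = 0.108). The differences of SPRY4 (0.21), SPRED2 (0.18), ETV5 (0.10), ETV4 (0.03), PHLDA1 (-0.02), SPRED1 (-0.05) and SPRY2 (-0.12) did not pass the test. DUSP5 therefore moved apart in the 2 lines under either drug, up in A549 and not in SUM159.

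**Figure D4:**
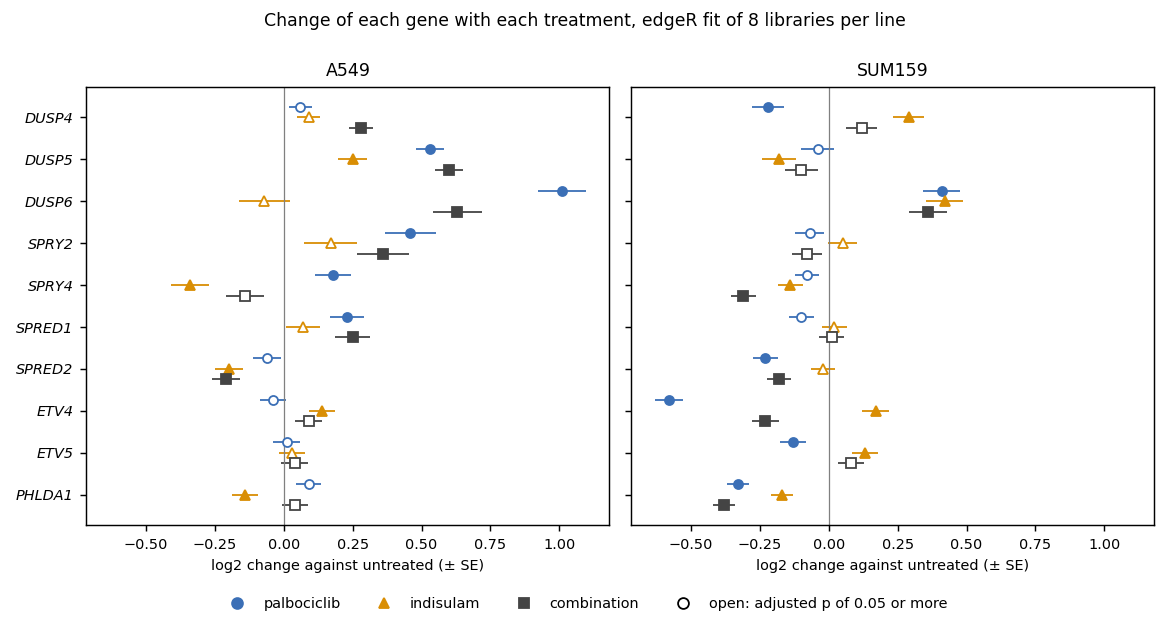
Log2 change of each gene against untreated cells of the same line (± SE from the edgeR fit of 8 libraries) with palbociclib (blue circles), indisulam (orange triangles) and both drugs (dark squares). Filled symbols passed adjusted p under 0.05. DUSP6 stands at 1.01 with palbociclib in A549, and in SUM159 its 3 treatments lie together at 0.36 to 0.42.

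With both drugs, A549 kept the rise of DUSP5 and part of that of DUSP6. Of the 10 genes 5 were higher and 1 lower than in untreated cells, against 57.8% of all genes called (27.4% higher and 30.4% lower). DUSP5 reached 69.5 and 66.8 CPM (log2 change 0.60, adjusted p = 1.91e-07) and DUSP6 reached 36.7 and 31.2 CPM (log2 change 0.63 ± 0.0895, adjusted p = 2.69e-05). SPRY2 held 18.0 and 16.2 CPM (0.36, adjusted p = 0.00462). DUSP4 rose to 434 and 405 CPM (0.28 ± 0.0428, adjusted p = 5.12e-05), although neither drug alone changed it past the threshold. SPRED1 rose by 0.25, a call lost without A549 untreated replicate 1 (adjusted p = 0.0638), and SPRED2 fell by 0.21, a call lost with total counts (adjusted p = 0.0638). SPRY4 (-0.14), ETV4 (0.09), ETV5 (0.04) and PHLDA1 (0.04) did not pass the test.

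Against palbociclib alone, adding indisulam in A549 lowered DUSP6 (-0.38 ± 0.079, adjusted p = 0.00113), SPRY4 (-0.32) and SPRED2 (-0.15) and raised DUSP4 (0.23) and ETV4 (0.13), where 51.5% of all genes were called (23.7% higher and 27.8% lower). This count of 5 fell to 3 without A549 palbociclib replicate 1 or combination replicate 2, and was 3 by DESeq2. SPRY2 (-0.10), PHLDA1 (-0.05), SPRED1 (0.01), ETV5 (0.03) and DUSP5 (0.07) did not pass this test. Against indisulam alone, adding palbociclib raised 6 members and lowered none, with 38.8% of all genes called (18.6% higher and 20.1% lower). DUSP6 rose most (0.70 ± 0.0872, adjusted p = 1.86e-05), then DUSP5 (0.35), SPRY4 (0.20), DUSP4 (0.19), PHLDA1 (0.18) and SPRED1 (0.17), while SPRY2 (0.19), ETV5 (0.02), SPRED2 (-0.01) and ETV4 (-0.04) did not pass the test. Without A549 indisulam replicate 1 this count was 3, and DESeq2 lost the calls of SPRY4 and SPRED1. The phosphatases DUSP5 and DUSP6 were thus higher wherever A549 cells received palbociclib, with or without indisulam.

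In SUM159, both drugs together lowered 4 members and raised 1, against 65.3% of all genes called (32.2% higher and 33.1% lower). DUSP6 held 22.4 and 22.8 CPM (log2 change 0.36 ± 0.0676, adjusted p = 0.000152), at or below its level with either drug. PHLDA1 fell to 82.1 and 83.1 CPM (-0.38, adjusted p = 3.25e-07) and SPRY4 from 82.4 and 82.0 CPM to 67.2 and 65.7 CPM (-0.31, adjusted p = 1.41e-05). ETV4 held 50.6 and 52.0 CPM (-0.23, adjusted p = 0.000579), between its palbociclib and untreated levels, and SPRED2 fell by 0.18. The calls of ETV4 and SPRED2 ended with total counts (-0.08 and -0.03, adjusted p = 0.148 and 0.508), a scaling that moved the median of all genes by 0.15. DUSP4 (0.12), ETV5 (0.08), SPRED1 (0.01), SPRY2 (-0.08) and DUSP5 (-0.10) did not pass the test.

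Adding indisulam to palbociclib in SUM159 raised ETV4 (0.34 ± 0.0498, adjusted p = 2.49e-05), DUSP4 (0.34), ETV5 (0.21) and SPRED1 (0.11) and lowered SPRY4 (-0.23), where 48.3% of all genes were called (23.4% higher and 24.9% lower). The libraries of ETV4 did not overlap, at 39.2 and 41.5 CPM with palbociclib and 50.6 and 52.0 CPM with both. Adding palbociclib to indisulam lowered 6 members and raised none, with 52.9% of all genes called (24.9% higher and 28% lower). ETV4 fell from 66.7 and 68.9 CPM (-0.40 ± 0.0478, adjusted p = 2.00e-06), PHLDA1 from 96.5 and 94.9 CPM (-0.21), and DUSP4, SPRY4, SPRED2 and SPRY2 by 0.13 to 0.17. DESeq2 lost the calls of DUSP4 and SPRY2 here, and that of SPRED1 against palbociclib. With total counts 3 members were called against indisulam, 1 higher and 2 lower. Against palbociclib, SPRED2 (0.05), SPRY2 (-0.01), PHLDA1 (-0.05) and DUSP5 (-0.07) did not pass the test, nor did DUSP5 (0.08), SPRED1 (-0.02) and ETV5 (-0.04) against indisulam. DUSP6 did not differ past the threshold in either comparison (-0.04 ± 0.0605 and -0.06 ± 0.0616, or 0.00213 and 0.04 with total counts). ETV4 thus stood at its lowest with palbociclib and its highest with indisulam, and the combination lay between them.

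Whether the drugs acted additively was tested as the log2 change with both drugs minus the sum of the 2 single changes. In SUM159, DUSP6 departed from the sum by -0.46 ± 0.0911 (adjusted p = 0.00867), where 4.38% of all genes were called (2.22% higher and 2.16% lower). It was the only member called, and the call held under the alternatives tried other than the one that asks for an absolute log2 change of at least 1. In A549 no member was called by edgeR, against 3.53% of all genes (1.49% higher and 2.05% lower). The A549 value for DUSP6 was -0.31 ± 0.123 (edgeR unadjusted p = 0.0251, adjusted p = 0.192). DUSP5 (-0.18, unadjusted p = 0.0274) and DUSP4 (0.13, unadjusted p = 0.0459) were the other members under 0.05 before adjustment. DESeq2 also called 0 members in A549, and without A549 combination replicate 1 the count was 1. The departures of the other members lay between -0.27 (SPRY2, edgeR unadjusted p = 0.0542) and 0.09 (PHLDA1) in A549. In SUM159 those of the members other than DUSP6 lay between -0.09 and 0.17.

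**Figure D5:**
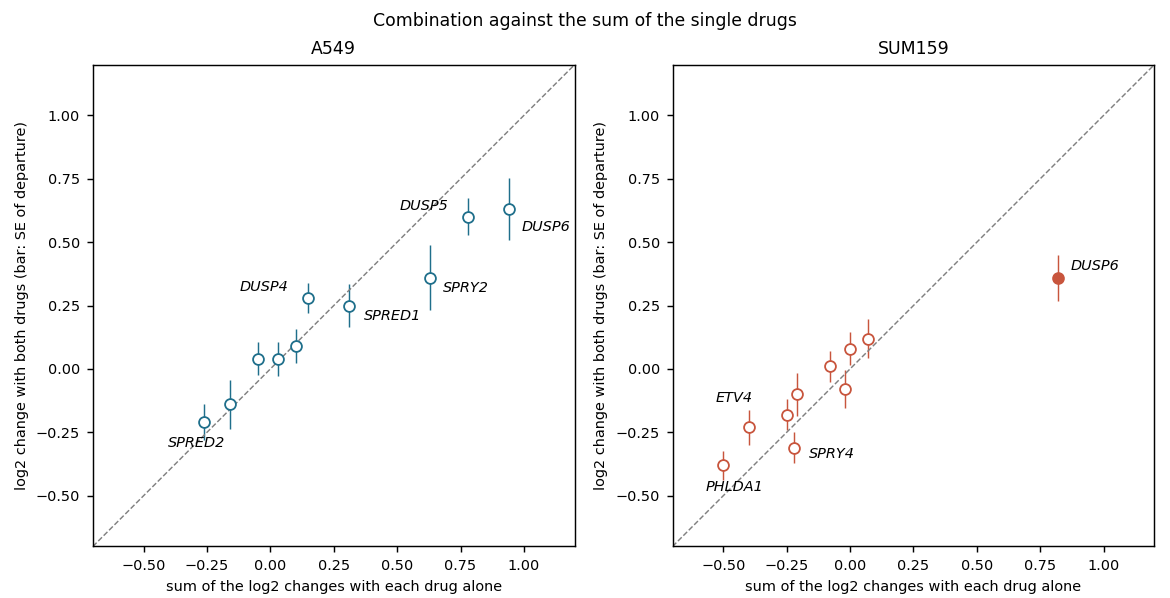
Log2 change with both drugs (vertical) against the sum of the log2 changes with each drug alone (horizontal), for the 10 genes in A549 and SUM159. Bars are the SE of the departure from the dashed line of additivity, and the filled point passed adjusted p under 0.05. DUSP6 in SUM159 lies at 0.36, below the dashed line by 0.46.

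The combination response differed between lines at 4 members, all lower in SUM159, where 30.9% of all genes were called (11.8% lower and 19.1% higher). DUSP5 differed most (-0.63 ± 0.083, adjusted p = 3.00e-06), then SPRY2 (-0.37), PHLDA1 (-0.35) and ETV4 (-0.26). For DUSP6 the difference was -0.20 ± 0.115 (adjusted p = 0.202). SPRED1 (-0.17), SPRY4 (-0.10), DUSP4 (-0.09), SPRED2 (0.09) and ETV5 (0.11) did not pass the test either. The members' median was -0.19 and that of all genes 0.10, a gap of the same sign as with palbociclib alone. The count was 8 without A549 untreated replicate 1, either A549 palbociclib library, either A549 indisulam library or A549 combination replicate 2, and 5 with factors from each line alone.

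The rest of the pathway was read from a list of 92 genes, of which 90 were tested in A549 and 88 in SUM159. With palbociclib 42 were called in A549 (23 higher, 19 lower) and 55 in SUM159 (21 higher, 34 lower). These are 46.7% and 62.5% of those tested, beside 43.2% and 54.5% of all genes. Among 12 further feedback genes, 6 were higher and 1 lower in each line with palbociclib. Of all genes, 22% were higher and 21.1% lower in A549, and 25.5% higher and 29% lower in SUM159. The tally was much alike without palbociclib. With indisulam 6 were higher and 1 lower in A549, and 6 higher and 2 lower in SUM159. Of all genes, indisulam raised 23.3% and lowered 25.9% in A549, and 21.9% and 24.9% in SUM159. With both drugs 6 were higher and 3 lower in A549, and 7 higher and 2 lower in SUM159. Of all genes, both drugs raised 27.4% and lowered 30.4% in A549, and 32.2% and 33.1% in SUM159. DUSP10, a phosphatase that acts mainly on JNK and p38, rose by 0.75 in A549 with palbociclib, 0.58 with indisulam and 1.09 with both. DUSP1, a phosphatase of several MAP kinases, rose by 0.59 in A549 with both drugs. SPRY3, a Sprouty gene, rose in SUM159 by 1.13 with palbociclib and 1.46 with both, and SPRED3 fell there by 0.66 with indisulam. SPRY1 did not pass the test with palbociclib in either line (0.33 and -0.31). With indisulam it was called higher in SUM159 (0.62 ± 0.181, edgeR adjusted p = 0.0102) and not called in A549 (-0.03). Among 8 transcription factors that ERK phosphorylates or relieves, 5 were lower in A549 and 7 in SUM159 with palbociclib, and none was higher. Of all genes, 21.1% were lower with palbociclib in A549 and 29% in SUM159. ERF, a repressor that ERK exports from the nucleus, changed by -0.64 in SUM159, and CIC did not pass the test in either line (-0.14 and -0.13).

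FOSL1, an AP-1 gene that sustained ERK activity induces, was called lower under every treatment in both lines, although its call with indisulam in A549 (-0.21) was lost by DESeq2 (adjusted p = 0.0519). Its mean fell from 51.0 to 32.9 CPM in A549 (log2 change -0.63, adjusted p = 3.27e-06) and from 213 to 118 CPM in SUM159 (-0.85, adjusted p = 1.00e-11) with palbociclib. With both drugs it changed by -0.50 and -0.96. FOSL1 thus fell in the same A549 libraries in which DUSP6, DUSP5 and SPRY2 rose. It belongs to a class of 17 other ERK-induced genes in the list. With palbociclib, 4 of the 15 tested in A549 were higher and 2 lower. In SUM159, 3 of the 17 tested were higher and 8 lower. Of all genes, 22% were higher and 21.1% lower in A549, and 25.5% higher and 29% lower in SUM159. CCND1, which encodes the cyclin D1 partner of CDK4 and CDK6, rose with palbociclib by 0.46 in A549 and 0.41 in SUM159. EGR1, an immediate early gene, held only 3.39 to 4.16 CPM on average in the A549 groups and was not called there. In SUM159 it changed by -0.19 with palbociclib (a call lost by DESeq2), -0.55 with indisulam and -0.81 with both.

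Upstream of the members, HRAS fell with palbociclib in both lines (-0.48 and -0.44). MAPK3, which encodes ERK1, was called higher with palbociclib in SUM159 (0.26) and was not called in A549 (-0.01). In the fit of all 16 libraries the difference between lines was 0.36 ± 0.0909 (adjusted p = 0.00828), where the median of all genes was 0.08. With indisulam MAPK3 was called lower in both lines (-0.29 in A549 and -0.32 in SUM159). EGFR rose with the combination in A549 (0.49) and fell with indisulam in SUM159 (-0.43). Among list genes of at least 5 CPM, the EGFR ligands EREG and AREG fell most with indisulam in A549 (-0.95 and -0.74), where the ligand gene EGF rose by 0.49. The receptor gene ERBB3 rose by 0.59 with palbociclib in A549. By the same rule the receptor gene IGF1R rose most with indisulam in SUM159 (0.65), and it rose by 1.02 with both drugs. RPS6KA3, a kinase under ERK, changed by -0.55 with indisulam and -0.95 with both in that line. RPS6KA2, of the same kinase family, rose there by 0.81 with palbociclib, and KSR1, a scaffold of the cascade, by 0.56 with indisulam. By the test of the difference between lines, 22 of the 92 list genes were called for palbociclib, 23 for indisulam and 44 for both drugs, which is 23.9%, 25.0% and 47.8% beside 12.8%, 15% and 30.9% of all genes.

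The genes whose pattern was most like that of DUSP6 were sought over the 8 libraries of each line, by the smaller of the 2 Pearson correlations of log2 CPM. Among 9652 genes TSC22D3 came first (0.949 in A549 and 0.924 in SUM159), followed by FLVCR2, SOX4, YPEL2 and TRIB1, the last at 0.857 and 0.904. No other member was among the closest. SPRY2 and PHLDA1 followed DUSP6 in A549 (0.892 and 0.822) and not in SUM159 (-0.152 and -0.768), and DUSP5 did likewise (0.821 and -0.565). So did SPRED1 (0.811 and -0.210) and SPRY4 (0.692 and -0.559). The libraries of a line share their treatments and are pairs of duplicates, so these correlations are given as a description.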

How the data were processed

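RNA from 16 libraries (8 per line) had been sequenced from strand-specific mRNA libraries. The authors deposited raw counts per gene for each library. The submitters' processing notes name GRCh38, HISAT2 2.2.1 and HTSeq, adapters having been trimmed with SeqPurge, and the annotation release and strand setting are not given in the sources used here. Identifiers were named with GENCODE release 44 (58207 of 58676 matched). HTSeq's summary rows stayed out of library sizes, and reads in no gene, ambiguous or not uniquely aligned were 13.2 to 16.4% of all. Genes were filtered with filterByExpr, scaled by TMM and tested with edgeR 4.0.16 (quasi-likelihood, R 4.3.3), one coefficient per group. A fit of the 8 libraries of a line gave within-line comparisons, and a fit of all 16 gave comparisons between lines. "Called" means a Benjamini-Hochberg adjusted p under 0.05 over all genes tested (15744 in A549, 16080 in SUM159, 17764 in both). Alternatives were DESeq2 1.42.0, other scalings and filters, a replicate block, fits of the compared groups alone, and each library left out. Fits were tested on simulated data in which 200 genes changed by 1 on the log2 scale, up or down. Smaller changes, and changes in a large share of genes, were not simulated. The libraries of each pair differed by more than counting error (chi-square per degree of freedom from 1.39 to 6.25). A count of 3 corresponds to 0.088 to 0.164 CPM, far below every member, and such limits cover counting error only. All members are given in every comparison, the departures from additivity partly as a range. From the pathway list, 8 of 10 set genes are named (the other two are not reported here), with the 2 largest rises and falls among called genes of at least 5 CPM that moved alike in both pairs. The members and lists were chosen with earlier results of these data known.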

Additional observations from a re-analysis of the deposited data

Results flagged for a closer look

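The change with palbociclib differed between SUM159 and A549, by a test of the difference itself, for DUSP6 (-0.51), DUSP5 (-0.47), ETV4 (-0.44), SPRY2 (-0.43), PHLDA1 (-0.33) and SPRED1 (-0.24), as log2 change in SUM159 minus that in A549. The call of SPRED1 was lost without any 1 of 5 of the 16 libraries, with the replicate block and with only the groups compared. The change with indisulam differed for DUSP6 (0.49), DUSP5 (-0.43) and DUSP4 (0.20), the last a call lost without any 1 of 14 of the 16 libraries, with DESeq2 size factors, with the replicate block and by DESeq2. The change with both drugs differed for DUSP5 (-0.63), SPRY2 (-0.37), PHLDA1 (-0.35) and ETV4 (-0.26).

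Reads in no gene feature were left out of every comparison, and their share of all reads was above both untreated libraries in both libraries of 5 treated groups. The means were 5.83% with indisulam and 5.25% with both drugs in A549, beside 4.29% untreated. They were 5.21% with palbociclib, 5.89% with indisulam and 6.36% with both drugs in SUM159, beside 3.94% untreated.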

How the results depend on the processing

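Of 160 member changes tested, 79 were called, and 51 of these kept the call under every alternative other than a minimum size of change. The lowest member count in any library was 230 (SPRY2, A549 untreated replicate 2). No called change of a member or named pathway gene changed sign under any alternative. Asking for an absolute log2 change of at least 1 left 1 member (DUSP6) with palbociclib in A549 and 3 between untreated lines, and 0 in the other comparisons with a called member. Under that rule the pathway list kept 1, 0, 3, 2 and 1 genes in the A549 comparisons (palbociclib, indisulam, both against untreated, both against palbociclib, both against indisulam) and 2, 1, 4, 1 and 2 in those of SUM159. It kept 0 in both departures from additivity, 35 between untreated lines, and 0, 3 and 4 in the responses to palbociclib, indisulam and both. By DESeq2, 3 members were called with indisulam in A549 and 3 with both drugs against palbociclib, and 26 pathway genes with both drugs against indisulam. With total counts, 3 members were called with both drugs against indisulam in SUM159. With at least 10 counts in every library, 8 members were called in the combination response between lines. The cause was not tested.

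Leaving out each library in turn moved the number of members called to 3 to 5 with palbociclib in A549 (lowest without untreated replicate 1), 2 to 5 with indisulam in A549 (untreated or indisulam replicate 1), and 3 to 5 with both drugs against palbociclib in A549 (palbociclib replicate 1 or combination replicate 2). It was 3 to 7 with both drugs against indisulam in A549 (indisulam replicate 1), 0 to 1 for the A549 departure (combination replicate 1), and 3 to 7 with indisulam in SUM159 (untreated or indisulam replicate 2). For the responses between lines it was 5 to 10 for palbociclib (highest without A549 untreated replicate 1, indisulam replicate 2 or either combination library), and 1 to 3 for indisulam (lowest without A549 untreated replicate 1). For both drugs it was 4 to 8 (highest without A549 untreated replicate 1, combination replicate 2 or any A549 palbociclib or indisulam library). The pathway list ranged from 25 to 38 with both drugs against indisulam in A549 (indisulam replicate 1). It ranged from 0 to 12 for the A549 departure (palbociclib replicate 2 or either indisulam library), 1 to 12 for that of SUM159 (indisulam replicate 2) and 14 to 28 for the indisulam response between lines (SUM159 indisulam replicate 2).

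A replicate block, which takes the libraries' numbers as pairs, gave 5 members with palbociclib in A549 and 6 in SUM159, as without it. It ended the calls of ETV5 with indisulam (adjusted p = 0.0539), of SPRED1 with both drugs against palbociclib (0.0603) and of SPRY2 with both against indisulam (0.0653) in SUM159. Between lines it ended those of SPRED1 with palbociclib (0.0552) and of DUSP4 with indisulam (0.0524). Deviations of same-numbered libraries correlated at -0.362 to 0.317, so the numbers are not shown to pair them. With crossed numbers, added after seeing the data, the block gave 5, 5, 5 and 6 members in the 4 comparisons whose correlation was under -0.1.

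Scaling by total counts moved the share of higher calls among all genes by over 10 points in 8 comparisons. It went from 51.1 to 62.4%, 47.4 to 57.8% and 48.1 to 61.2% in A549 (palbociclib, both, both against indisulam). It went from 46.8 to 62.5%, 46.8 to 57.9%, 49.3 to 64.3% and 47.1 to 62.4% in SUM159 (palbociclib, indisulam, both, both against indisulam). For the palbociclib response between lines 75.4% became 61.3% with total counts, 44.0% with DESeq2 size factors and 42.2% with DESeq2. For the combination response 61.8% became 46.6% and 44.7% with the last 2. For the A549 departure 42.1% became 54.7% and 53.9%.

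Changes that had not been called crossed 0 in 43 results. With total counts these were, in A549, SPRED2 (0.000595), ETV4 (0.02) and MAPK3 (0.05) with palbociclib, SPRY1 (0.000327) with indisulam, and SPRED2 (0.05) and ETV4 (0.01) with both drugs against indisulam. In SUM159 they were DUSP5 (0.07), SPRY2 (0.04), SPRY4 (0.03) and SPRED1 (0.000872) with palbociclib, SPRED2 (0.04) with indisulam, and DUSP5 (0.05), SPRY2 (0.07), EGFR (0.03) and SPRY1 (0.06) with both drugs. They were also DUSP6 (0.00213) and SPRY2 (0.03) with both against palbociclib, and DUSP6 (0.04), SPRED1 (0.08) and ETV5 (0.05) with both against indisulam. With no filter they were DUSP5 between untreated lines (-0.02), the A549 departure of ETV4 (0.00349), EGR1 with indisulam in A549 (-0.00083) and the indisulam response of PHLDA1 (0.001). With at least 10 counts they were SPRED1 (0.04) and ETV5 (0.01) with both against indisulam in SUM159, and the combination response of SPRED2 (-0.01). With DESeq2 size factors and by DESeq2 they were the A549 departure of ETV4 (0.02 and 0.02) and EGR1 with indisulam in A549 (-0.00202 and -0.01). With only the groups compared it was ETV5 with palbociclib in A549 (-0.01).

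Leaving out libraries gave these ranges across 0 in A549. With palbociclib, ETV4 ranged from -0.10 to 0.00467, ETV5 from -0.02 to 0.05, EGFR from -0.04 to 0.10 and MAPK3 from -0.06 to 0.02. With indisulam, DUSP6 ranged from -0.15 to 0.04, SPRY1 from -0.22 to 0.22 and EGR1 from -0.36 to 0.30. With both drugs, PHLDA1 ranged from -0.01 to 0.08, CIC from -0.42 to 0.07 and SPRY1 from -0.16 to 0.27. Against palbociclib, SPRED1 ranged from -0.05 to 0.10 and PHLDA1 from -0.08 to 0.01, and against indisulam SPRED2 from -0.05 to 0.01 and ETV5 from -0.02 to 0.06. The departures ranged from -0.02 to 0.10 for SPRY4, -0.12 to 0.05 for SPRED1, -0.05 to 0.05 for ETV4 and -0.03 to 0.06 for ETV5. In SUM159, DUSP5 ranged from -0.10 to 0.04 with palbociclib. With indisulam SPRY2 ranged from -0.00383 to 0.11, SPRED1 from -0.01 to 0.05, SPRED2 from -0.04 to 0.01 and CCND1 from -0.01 to 0.04. With both drugs SPRED1 ranged from -0.03 to 0.03 and SPRY1 from -0.23 to 0.05, and against indisulam SPRED1 from -0.04 to 0.00232. Between untreated lines DUSP5 ranged from -0.03 to 0.14. The combination response ranged from -0.08 to 0.11 for SPRED2 and -0.08 to 0.13 for ETV5, and the indisulam response of ETV4 from -0.01 to 0.06.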
